A study of Mus musculus with 12 samples.

Results

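The nuclear genes of the respiratory chain and the ATP synthase were described in donor bone marrow progenitors of 4 genotypes. Members were chosen by symbol: all genes of the count table that start with Nduf, Uqcr, Atp5, Cox4, Cox5, Cox6, Cox7 or Cox8, together with Sdha, Sdhb, Sdhc, Sdhd and Cyc1, and without symbols that contain -ps. This gave 99 of 55450 genes, of which 90 passed the filter on low counts and were tested. They were grouped, mostly by symbol. Complex I had 7 core and 32 accessory rows and 8 assembly factors. Complex II had 4 rows, complex III 9, complex IV 21 and complex V 18. The filter kept every row of the core, assembly, complex II and complex III groups, 30 accessory, 15 complex IV and 17 complex V rows.

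The cells were donor cells free of lineage markers and positive for Kit, a receptor of stem and progenitor cells, sorted from marrow after competitive transplantation into mice. The genotype labels are WT (wild type), Tet2KO (Tet2 knocked out), Id1KO (Id1 knocked out) and dKO (Tet2 and Id1 knocked out together), with 3 libraries each. All groups share the transplant setting. The alleles, the driver of each deletion, the age of the animals and the number of mice pooled per library are not given in the sources used here. All libraries of a genotype carry 1 sample number in their titles, so they may be repeats of 1 cell sample, and every p-value below measures the spread between these libraries, which may be technical.

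The libraries held 15706407 to 19959183 estimated counts. Tet2 stood at 99.3 CPM (a gene's count relative to the size of its library, with sizes scaled by TMM) in WT and 130 in Tet2KO, and Id1 at 1.47 CPM in WT and 3.96 in Id1KO. Thus the knockout labels did not go with lower counts of either target, the genotype names here are those of the libraries labelled so, and each direction below rests on those labels. The counts cover whole genes and would not show the loss of a part of a transcript.

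Oxidative phosphorylation passes electrons from NADH through complex I, and from succinate through complex II, by way of ubiquinone to complex III, then through cytochrome c to complex IV, which reduces oxygen. Complexes I, III and IV pump protons across the inner mitochondrial membrane, and complex V, the ATP synthase, uses that gradient to make ATP. Most subunits are encoded in the nucleus and imported, while a small set is encoded in mitochondrial DNA, so assembly needs products of both genomes. In marrow, stem cells are known to lean on glycolysis, and erythroid precursors carry many mitochondria, which also make heme.

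The members were abundant in these cells. Levels of different genes were compared as counts per base of exonic length, scaled to the same total over all genes in each library, here called the level per length. Over the 12 libraries its median was 101 for the 90 tested members and 9.93 for all 14346 genes tested. Complex IV had the highest median of the groups (212), followed by complex III (130), complex V (124), complex II (104), the complex I core (77.1) and accessory subunits (74.0). With the longest transcript as length, the order of complexes III and V was reversed. Their medians were then those of Uqcrc1 (172) and Atp5mpl (197). The complex I assembly factors, which help build the complex and do not stay in it, had a median of 14.2 and ran from 7.88 for Ndufaf2 to 32.4 for Ndufaf8. The ranges overlapped at the low end of the other groups. There Cox4i2 and Cox6a2 of complex IV stood at 1.12 and 2.33 and the accessory subunit Ndufab1 at 13.8. Atp5s, placed with complex V by its symbol alone (RefSeq name Dmac2l), stood at 7.43.

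**Figure D1:**
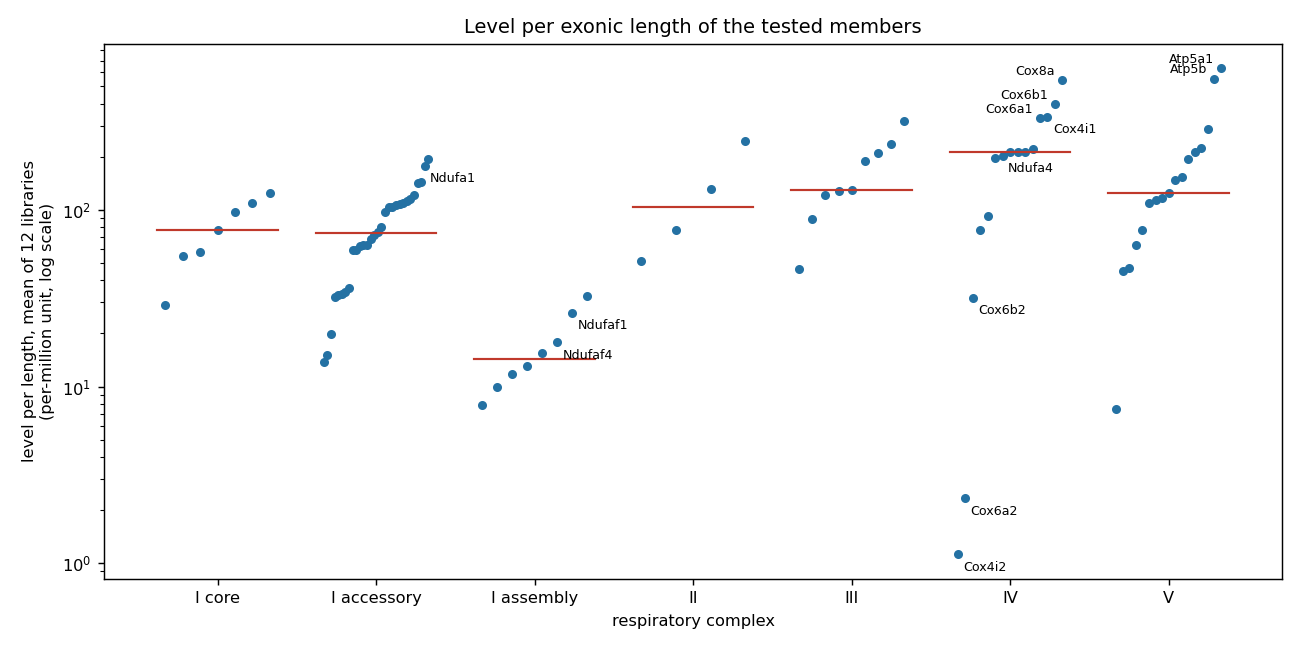
Level per exonic length of the 90 tested members (scaled to the same total per library, log axis, mean of 12 libraries), 1 point per gene, grouped by complex, with a red line at each group's median. Complex IV has the highest median, 212, and also holds the lowest members, Cox4i2 at 1.12 and Cox6a2 at 2.33.

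The catalytic core of the ATP synthase was the most abundant. Atp5a1, its alpha subunit, had a level per length of 633, and Atp5b, the beta subunit that carries the catalytic sites, 552. The order of the top members depends on which length is used: with the longest transcript as length, Atp5b stood at 1040 and Atp5a1 at 631. Cox8a (540), Cox6b1 (396) and Cox4i1 (337), all nuclear subunits of cytochrome c oxidase, came next. Among the membrane-ring genes of the ATP synthase, Atp5g2 stood at 212, Atp5g3 at 148 and Atp5g1 at 76.9 per exonic length. Atp5g2 shares 645 bases at 100% identity with the pseudogene Gm10175, so its counts are less certain. In complex II the membrane anchor Sdhd (244) stood above the flavoprotein Sdha (132) and the iron-sulfur subunit Sdhb (76.5).

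Complex IV has tissue isoforms, and these separated widely. Cox4i1 stood at 337 and Cox4i2, known as a lung isoform, at 1.12. Cox6a1 stood at 331 and Cox6a2, the heart and muscle isoform, at 2.33. Cox7a2 stood at 213 and Cox7a1, a muscle isoform, at 0.933. Cox6b1 stood at 396 and Cox6b2, known from testis, at 31.6, with 246 to 418 counts in each library. Cox6b2 stood highest of these isoforms, and Cox7a1 did not pass the filter. A further 5 members were at 0 in all libraries: Cox8b, Cox8c, Cox7b2, Ndufa4l2 and a second gene identifier for Atp5o. The remaining untested rows, Cox6c2, Ndufa11b and Ndufs6b, are annotated as processed pseudogenes and stood at 0.194 or lower.

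In the libraries labelled Tet2KO, 45 of the 90 tested members were lower than in WT by edgeR's quasi-likelihood test (Benjamini-Hochberg adjusted p under 0.05 over all 14346 genes), and none was higher. Over all genes tested, 16.2% were called lower and 16.6% higher. No member was higher at an unadjusted p under 0.05 or by DESeq2 either. At that unadjusted p 54 members were lower, beside 6072 of all 14346 genes in either direction. DESeq2 called 36 members lower, beside 3598 of all genes in either direction. The changes of the members were small and spread over all complexes. The members' median log2 fold change was -0.107, a change of -7.13%, beside -0.003 for all genes tested, and 86 of the 90 had a negative value. The 3 Tet2KO libraries lay below all 3 WT libraries for 51 members (56.7%), which holds for 23.1% of all genes.

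By group, 7 of 9 complex III members were lower, 10 of 15 in complex IV, 10 of 17 in complex V, 4 of 7 in the complex I core, 2 of 4 in complex II, 10 of 30 accessory subunits and 2 of 8 assembly factors. The medians ran from -0.087 in complex II to -0.153 in complex III. The groups' differences from each other were not tested.

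**Figure D2:**
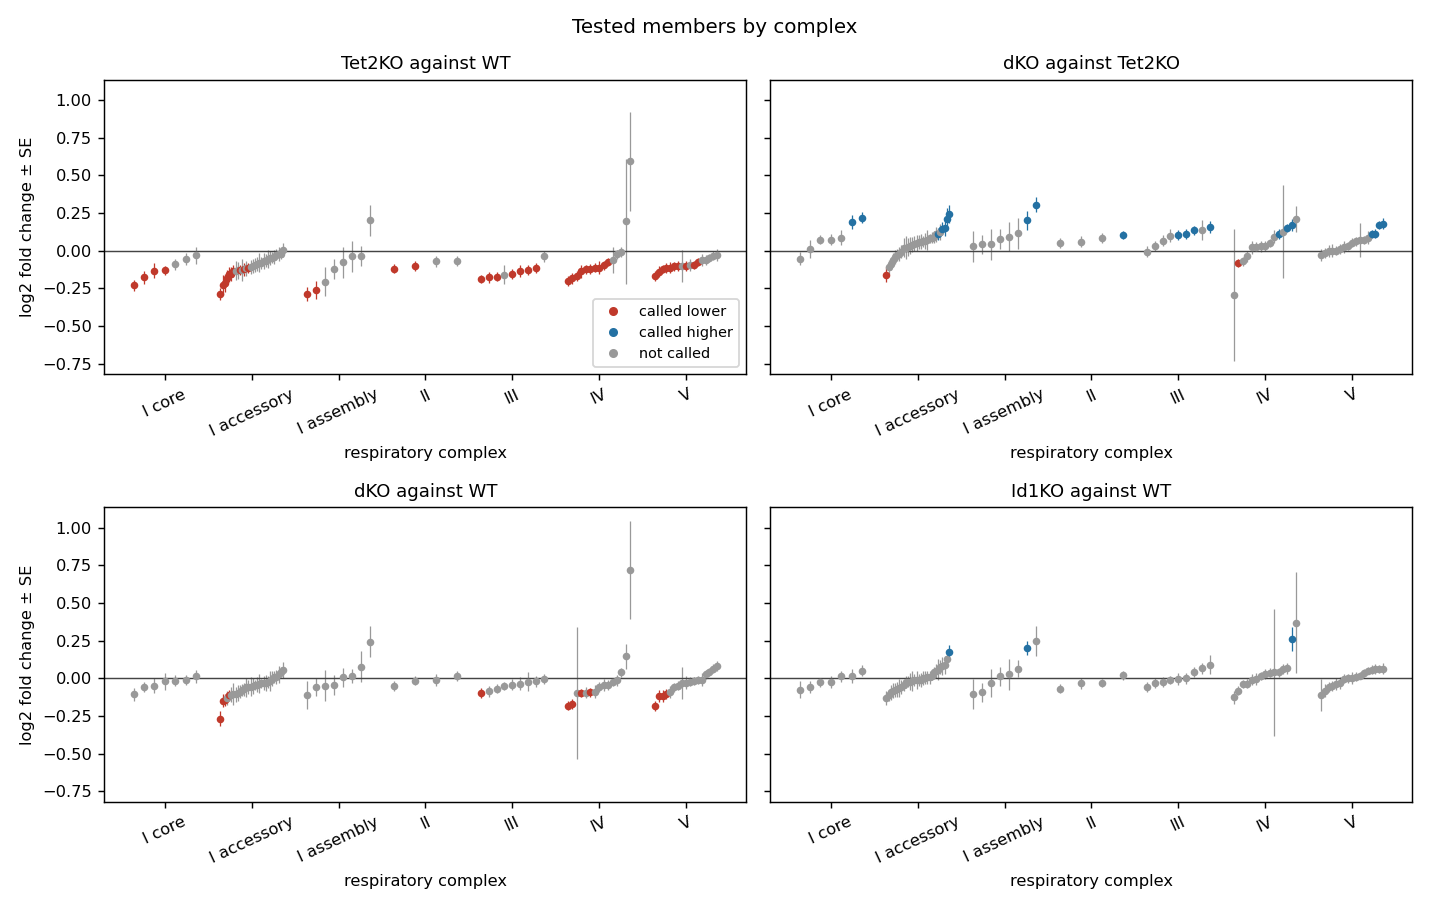
Log2 fold change with its standard error for each of the 90 tested members in 4 comparisons, grouped by complex and sorted within it; red points were called lower, blue points higher and grey points were not called (adjusted p under 0.05). In Tet2KO against WT 45 points are red and none blue, in dKO against Tet2KO 21 are blue and 2 red. The isolated grey points with long bars in complex IV are the scarce Cox6a2 and Cox4i2.

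Among the core subunits of complex I, Ndufs1 (ENSMUSG00000025968.16, chromosome 1, 63143596 to 63176833 on GRCm38), which carries iron-sulfur clusters on the electron path, stood at 125, 135 and 127 CPM in the WT libraries and at 110, 108 and 112 in Tet2KO. It stood at 132, 126 and 133 in Id1KO and at 125, 126 and 133 in dKO. The 3 Tet2KO libraries were the lowest of the 12 and did not overlap any other genotype. The log2 fold change in Tet2KO against WT was -0.23 ± 0.035 (SE, n = 3 libraries each, edgeR adjusted p 5.17e-05). Part of its exons lies across from the gene Ino80dos, and whether the counting used strand is not given in the sources used here.

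Ndufv1, which holds the NADH binding site, stood at 140, 140 and 143 CPM in WT, 132, 118 and 124 in Tet2KO, 133, 144 and 140 in Id1KO and 145, 133 and 150 in dKO. Its Tet2KO libraries lay below those of all other genotypes, the nearest being 1 library each of Id1KO and dKO. The log2 fold change in Tet2KO against WT was -0.18 ± 0.043 (SE, edgeR adjusted p 0.0037).

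Among the accessory subunits the largest difference was that of Ndufb9 (ENSMUSG00000022354.4, chromosome 15, 58933756 to 58939488), in the membrane arm of complex I. It stood at 80.9, 87.5 and 86.0 CPM in WT, 69.9, 70.1 and 68.4 in Tet2KO, 85.0, 86.3 and 78.4 in Id1KO and 80.3, 74.6 and 75.7 in dKO. The Tet2KO libraries were lowest and the dKO libraries lay between them and WT. Ndufb9 differed in Tet2KO against WT by a log2 fold change of -0.29 ± 0.042 (SE, edgeR adjusted p 2.37e-05). Some of its exonic bases are shared with Gm49356 on the same strand. Ndufa5 (-0.22, adjusted p 0.00816) was lower as well.

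Ndufb4c also passed (-0.23, adjusted p 0.0129), but it is annotated as a processed pseudogene and is identical over 390 bases to Ndufb4, so the counting could divide reads between them. The call of Ndufb4c was lost in 3 of the 12 fits with 1 library left out (at most 0.0742, without Tet2KO replicate 2). Ndufb4 itself did not pass (-0.13, adjusted p 0.205).

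The assembly factor Ndufaf4 (ENSMUSG00000028261.13, chromosome 4, 24898083 to 24905001) was called in 4 of the 6 comparisons. It stood at 38, 36.4 and 37.5 CPM in WT, 30.9, 30.6 and 30.3 in Tet2KO, 44.4, 42.8 and 41.5 in Id1KO and 36, 38.1 and 39.2 in dKO. The Tet2KO libraries were below and the Id1KO libraries above all others, and WT and dKO overlapped. The log2 fold change was -0.29 ± 0.048 (SE, edgeR adjusted p 0.000109) in Tet2KO against WT. In Id1KO against WT it was 0.20 ± 0.045 (0.0044). In dKO against Tet2KO it was 0.31 ± 0.049 (9.8e-05).

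Ndufaf1, a factor for the membrane arm, stood at 20.4, 22.6 and 22.5 CPM in WT, 18.3, 17.9 and 18.5 in Tet2KO, 23.6, 21.9 and 23.1 in Id1KO and 20.2, 21.8 and 21.0 in dKO. Its Tet2KO libraries did not overlap the others, and it fell in Tet2KO against WT by 0.26 on the log2 scale (SE 0.06, edgeR adjusted p 0.0023). The other 6 assembly factors did not pass in this comparison.

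In complex II, Sdha, the flavoprotein that oxidises succinate and also belongs to the citrate cycle, stood at 308, 295 and 296 CPM in WT, 272, 272 and 284 in Tet2KO, 290, 291 and 300 in Id1KO and 298, 302 and 290 in dKO. The Tet2KO libraries were the 3 lowest of the 12. Sdha (-0.12 ± 0.029, edgeR adjusted p 0.00324) and Sdhb (-0.10, 0.0207) were lower in Tet2KO against WT, and the other members of complex II were not called. The call of Sdhb was lost in 4 of the 12 fits with 1 library left out (at most 0.0888, without WT replicate 2).

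In complex III, Uqcrc2 (ENSMUSG00000030884.12, chromosome 7, 120635176 to 120659524), a core protein of the matrix side, stood at 178, 185 and 182 CPM in WT, 160, 157 and 162 in Tet2KO, 181, 177 and 183 in Id1KO and 173, 174 and 179 in dKO. The Tet2KO libraries stood apart below the other 9. Relative to WT the log2 fold change in Tet2KO was -0.19 ± 0.027 (SE, edgeR adjusted p 2.6e-05). The partner core protein Uqcrc1 (-0.17, adjusted p 0.000311), the Rieske iron-sulfur protein Uqcrfs1 (-0.18, 0.00108) and cytochrome c1, Cyc1 (-0.12, 0.0105), were lower in the same comparison. Without Tet2KO replicate 2, Cyc1 was not called (0.0956).

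In complex IV, Cox7a2, the ubiquitous isoform of a small membrane subunit, stood at 111, 117 and 118 CPM in WT, 101, 101 and 98.8 in Tet2KO, 113, 110 and 114 in Id1KO and 103, 98.5 and 105 in dKO. Here Tet2KO and dKO overlapped and both lay below WT and Id1KO. Relative to WT, Cox7a2 changed by -0.20 ± 0.033 in Tet2KO and by -0.17 ± 0.033 in dKO on the log2 scale (SE, edgeR adjusted p 9.58e-05 and 0.000861). Cox7b (-0.17), Cox6b1 (-0.12) and Cox5b (-0.11) were lower in Tet2KO against WT too. Cox4i1 (-0.07, adjusted p 0.0427) lost its call in 9 of the 12 fits with 1 library left out.

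In complex V, Atp5b stood at 1230, 1290 and 1290 CPM in WT, 1160, 1170 and 1170 in Tet2KO, 1290, 1290 and 1280 in Id1KO and 1270, 1250 and 1260 in dKO. The Tet2KO libraries were again the 3 lowest. Atp5b had a log2 fold change in Tet2KO against WT of -0.12 ± 0.025 (SE, edgeR adjusted p 0.000861). Atp5e, the epsilon subunit of the central stalk, stood at 115 in each WT library, 105, 100 and 103 in Tet2KO, 109, 112 and 112 in Id1KO and 107, 97.7 and 99.6 in dKO, so that Tet2KO and dKO overlapped below the other groups. It fell in Tet2KO against WT by 0.17 (SE 0.033, adjusted p 0.0006).

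**Figure D3:**
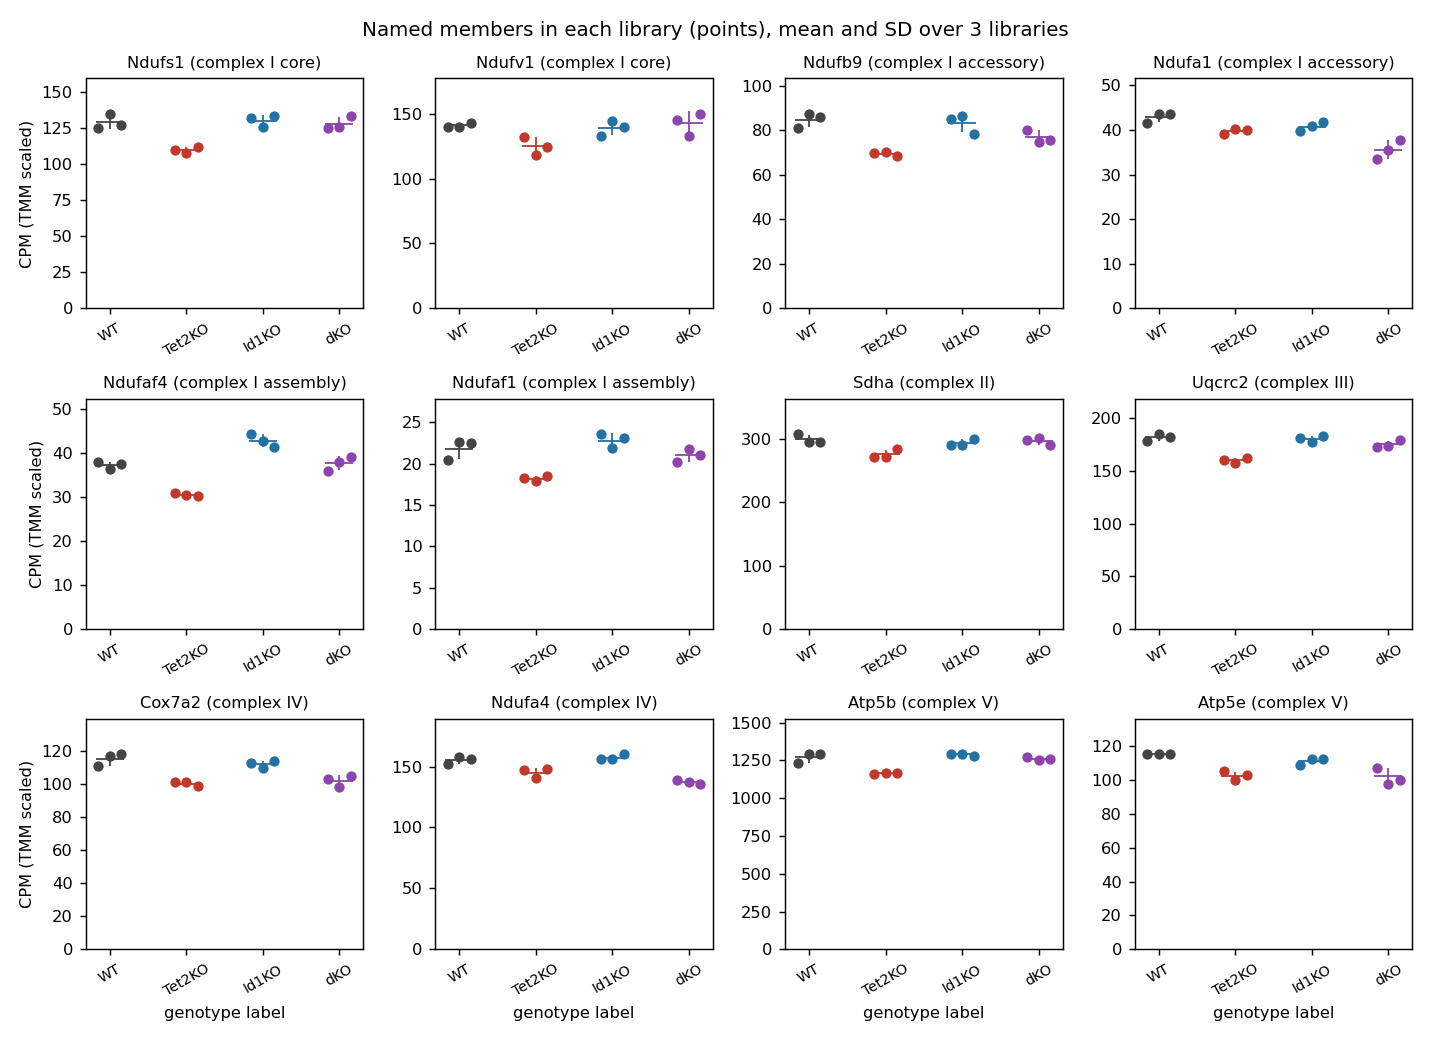
CPM after TMM scaling of 12 named members in each library (points), with the mean and SD over 3 libraries (horizontal mark and vertical line), for the 4 genotype labels; axes start at 0. Most members are lowest in the 3 Tet2KO libraries (Ndufaf4 at 30.3 to 30.9 CPM), while Ndufa1 and Ndufa4 are lowest in the 3 dKO libraries.

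The size of the difference from WT depends on how libraries were scaled. The WT libraries had TMM factors of 0.9716 to 0.9735 and the others 1.0037 to 1.0197, and the class of small RNA genes annotated as misc_RNA took 7.14 to 7.37% of the counts in WT against 4.49 to 5.25% elsewhere. With library totals and no such factors, 13 of the 90 members were lower in Tet2KO against WT. Over all 14346 genes 4758 were then called in either direction, beside 4699 in the main fit. The members' median became -0.051, the median of all genes tested became 0.052, and 28 members did not overlap. With totals over nuclear protein-coding genes, 41 were lower, beside 4684 of all genes in either direction. The members' median was then -0.1, beside 0.003 for all genes tested, and 51 did not overlap. The share of all genes without overlap is not given for these scalings, so nothing is read from the counts without overlap. On the level per length, whose total runs over all genes including the small RNAs, 88 of the 90 members stood lower in WT than in Tet2KO, so that scale was used between genes and not between genotypes.

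The count in Tet2KO against WT also rests on the libraries. It ranged from 28, without Tet2KO replicate 2, to 47 when 1 library was left out, and 22 of the 45 members were called in all 12 such fits. Over all genes 3862 of 14575 were called in either direction without Tet2KO replicate 2, and 3808 to 4964 over the 12 fits. When the 3 libraries of each genotype were summed to 1 and the effects of the Tet2 and Id1 labels were fitted as additive, edgeR called no member in any of the 5 pairwise comparisons, with 8 members at an unadjusted p under 0.05 for the Tet2 label, 2 for the Id1 label and 1 for their sum. No member differed by more than 1.2-fold in a test against that size (edgeR's glmTreat), also at an unadjusted p under 0.05. That test called 769 of all 14346 genes in Tet2KO against WT.

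In dKO against Tet2KO, 21 members were higher and 2 lower, beside 13.1% higher and 13.4% lower over all genes tested. The median log2 fold change of the 90 members was 0.063, beside -0.000 for all genes tested. At an unadjusted p under 0.05, 33 members were higher and 5 lower, beside 5339 of all 14346 genes in either direction. DESeq2 called 17 members higher and none lower, beside 2691 of all genes in either direction. For 29 members (32.2%) the 3 dKO libraries lay above all 3 Tet2KO libraries, which holds for 19.7% of all genes. With library totals and no scaling factors the counts were again 21 and 2, with a median of 0.061. Over all 14346 genes 3734 were then called in either direction, with a median of -0.002. Without Tet2KO replicate 2 there were 14 higher and 1 lower, beside 3026 of 14575 genes in either direction. Of the 21 members, 12 were called higher in all 12 fits with 1 library left out.

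Among the members called in dKO against Tet2KO, the largest increases after Ndufaf4 were those of Ndufa5 (0.24 ± 0.06, edgeR adjusted p 0.00537), Ndufs1 (0.22 ± 0.036, 0.000146), the pseudogene Ndufb4c (0.21) and Ndufaf1 (0.20 ± 0.061, 0.0197). Cox6b2 had a value of 0.21 as well but was not called (0.0843). Ndufaf1 and Ndufb4c each lost the call in 3 of 12 fits with 1 library left out, at most with an adjusted p of 0.0818 for Ndufaf1 without dKO replicate 2 and of 0.162 for Ndufb4c without dKO replicate 1, where its value was 0.14. Ndufv1 rose by 0.19 ± 0.044 (adjusted p 0.0028) and Uqcrc2 by 0.13 ± 0.028 (0.00111). Of the ring genes of the ATP synthase, Atp5g1 rose by 0.18 (adjusted p 0.000484) and Atp5g3 by 0.17 (0.000189), and Atp5g2 was not called (-0.03, 0.652).

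Atp5g3 showed this in every library, at 159, 159 and 159 CPM in Tet2KO and 180, 181 and 175 in dKO, with 172, 164 and 176 in WT and 178, 178 and 179 in Id1KO. The dKO libraries were at the level of Id1KO and the Tet2KO libraries were below all others. All 21 members called higher in dKO against Tet2KO were among the 45 called lower in Tet2KO against WT. The comparisons share the Tet2KO libraries, so this overlap is given as a count and carries no further reading.

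The other 2 members called in dKO against Tet2KO were lower, and DESeq2 called neither of them. Ndufa1 (X chromosome, 37187588 to 37191163), a small subunit needed for complex I assembly, stood at 41.6, 43.5 and 43.7 CPM in WT, 39.2, 40.3 and 39.9 in Tet2KO, 39.7, 40.9 and 41.7 in Id1KO and 33.6, 35.6 and 37.7 in dKO. The dKO libraries were below all others. In dKO it changed by -0.27 ± 0.048 relative to WT, by -0.16 ± 0.049 relative to Tet2KO and by -0.19 ± 0.048 relative to Id1KO on the log2 scale (SE, edgeR adjusted p 0.000435, 0.021 and 0.00759). The call against Tet2KO was lost in 3 fits with 1 library left out, at most with an adjusted p of 0.104 without dKO replicate 1, and that against Id1KO without the same library (0.0504). Xist had a mean of 262 CPM in WT, against 10.8 in Tet2KO, 16.7 in dKO and 64.9 in Id1KO. Its part in the values of the members, among them the X-linked Ndufa1, Ndufb11 and Cox7b, was not tested.

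Ndufa4, a protein that purifies with complex IV in spite of its name, stood at 152, 158 and 156 CPM in WT, 147, 141 and 148 in Tet2KO, 156, 156 and 160 in Id1KO and 139, 137 and 136 in dKO. The dKO libraries were again the lowest and did not overlap Tet2KO. In dKO it changed by -0.20 ± 0.029 relative to Id1KO and by -0.18 ± 0.029 relative to WT on the log2 scale (SE, edgeR adjusted p 4.75e-05 and 0.000126). In dKO against Tet2KO it was -0.08 (adjusted p 0.042), and 6 of the 12 fits with 1 library left out did not call it, at most with an adjusted p of 0.146 without Tet2KO replicate 3.

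In dKO against WT, 13 members were lower and none higher, beside 8.97% lower and 10.2% higher over all genes. The median was -0.044. At an unadjusted p under 0.05, 4 members were higher and 22 lower, beside 4499 of all 14346 genes in either direction. DESeq2 called 5 members lower and none higher, beside 1868 of all genes in either direction. Ndufa1, Atp5e, Ndufa4 and Cox7a2 were called in all 12 fits with 1 library left out; the other 9 were not. The count fell to 5 without WT replicate 2 or dKO replicate 2, to 6 without WT replicate 3, and to 8 without Tet2KO replicate 3 or Id1KO replicate 1. Over all genes the calls in these fits, in the same order, were 2046, 2261, 1999, 2650 and 2637, beside 2754 in the main fit. With library totals and no scaling factors the median turned to 0.01, with 5 members higher and 4 lower. On that scale the median of all genes tested was 0.051, beside -0.003 in the main fit. It had 3357 of all 14346 genes called in either direction, beside 2754 in the main fit.

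In dKO against Id1KO, 13 members were lower and none higher, beside 8.7% lower and 10.6% higher over all genes, with a median of -0.039. At an unadjusted p under 0.05, no member was higher and 20 were lower, beside 4548 of all 14346 genes in either direction. DESeq2 called 11 members lower, beside 1901 of all genes in either direction. Ndufs6, a zinc-binding accessory subunit, stood at 50.4, 51.1 and 54.9 CPM in Id1KO and 44.1, 44.8 and 45.4 in dKO, with 45.9, 46.9 and 45.5 in WT and 39.9, 45.2 and 43.7 in Tet2KO, so the Id1KO libraries stood above the other 9. Its log2 fold change in dKO against Id1KO was -0.22 ± 0.048 (SE, edgeR adjusted p 0.00272). Atp5mpl (-0.18), a small subunit of complex V, was also lower. Of the 13 members, 8 were also among the 45 of 90 lower in Tet2KO against WT, a share close to that of the tested members at large, so nothing is read from this count.

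In Id1KO against WT, 3 members were higher and none lower, beside 7.26% higher and 7.77% lower over all genes. They were Ndufaf4, Ndufs6 (0.18 ± 0.047, edgeR adjusted p 0.0144) and Cox6b2 (0.26 ± 0.083, 0.0371). Cox6b2 stood at 17.8, 16.3 and 18.4 CPM in WT and 22, 21.8 and 19.1 in Id1KO, without overlap. The call of Cox6b2 was lost in 4 fits with 1 library left out (at most 0.141, without WT replicate 2) and that of Ndufs6 without Id1KO replicate 3 (0.0747). The members' median was -0.002. At an unadjusted p under 0.05, 6 members were higher and 5 lower, beside 4085 of all 14346 genes in either direction. DESeq2 called 2 members higher, beside 1374 of all genes in either direction. With library totals and no scaling factors 17 members were higher and the median was 0.05, beside 0.044 for all genes tested. Over all genes 2742 were then called in either direction, beside 2156 in the main fit.

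The interaction asks whether the difference between dKO and Tet2KO departs from that between Id1KO and WT. It was positive in 5 members and negative in none, beside 7.46% positive and 7.03% negative calls over all genes, with a median of 0.069. At an unadjusted p under 0.05, 24 members were positive and 2 negative, beside 4028 of all 14346 genes in either direction. DESeq2 called 4 members positive, beside 1286 of all genes in either direction. Ndufs1 had the lowest adjusted p: it stood at 129 ± 5.0 CPM in WT and 130 ± 4.1 in Id1KO, and at 110 ± 2.1 in Tet2KO and 128 ± 4.5 in dKO (SD, n = 3 libraries), an interaction of 0.21 ± 0.05 (SE, edgeR adjusted p 0.00872). The other 4 were Ndufv1, Ndufb6, Uqcrc2 and Sdha, and Ndufs1 was the one called in all 12 fits with 1 library left out. With library totals and no scaling factors 1 member was positive and 2 were negative. Over all genes 2335 were then called in either direction, beside 2078 in the main fit. The members' median on that scale was 0.016, beside -0.044 for all genes tested.

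Across the 4 genotypes, 65 of the 90 members (72.2%) had their lowest mean CPM in Tet2KO, beside 31.6% of all genes tested. With library totals and no scaling factors 58 members were lowest there, beside 26.1% of all genes. With totals over nuclear protein-coding genes it was 70 members, beside 32.0% of all genes. In no comparison were 38 of the members called. The share of all genes called in none is not given, so nothing is read from that count. For each library the median over the members was taken of log2 CPM (0.5 added to CPM) relative to each gene's own mean. This median was -0.054, -0.083 and -0.062 in the Tet2KO libraries, 0.015, 0.051 and 0.051 in WT, 0.042, 0.033 and 0.039 in Id1KO and 0.002, -0.028 and 0.009 in dKO. The Tet2KO libraries lay below all others, and dKO lay between Tet2KO and the overlapping WT and Id1KO.

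The genes around the chain were read from lists taken from general knowledge. Of 16 carriers, 10 were lower in Tet2KO against WT (median -0.14) and 10 higher in dKO against Tet2KO (median 0.104). They include cytochrome c, Cycs, at -0.317 and then 0.17 (edgeR adjusted p 3.69e-07 and 0.000811), and the adenine nucleotide carrier Slc25a5 at -0.087 and 0.103. Of 16 citrate cycle genes, 9 were lower and then 8 higher (medians -0.113 and 0.105). Idh3a, a subunit of isocitrate dehydrogenase, stood at -0.261 and then 0.359 (adjusted p 0.000118 and 5.86e-06), and citrate synthase, Cs, at -0.152 and 0.142.

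Of 6 further complex I assembly factors, 4 were lower in Tet2KO against WT (median -0.138), among them Ecsit at -0.231. Of 32 tested assembly factors of complexes II to V, 6 were lower (median -0.1), among them the copper chaperone Cox17 at -0.344 (edgeR adjusted p 4.19e-05) and Tmem70, which serves the ATP synthase, at -0.274. Among 13 tested regulators of mitochondrial genes, 3 were lower and 1 higher in Tet2KO against WT, with a median of -0.005. Tfam, which packages mitochondrial DNA, stood at -0.123 (adjusted p 0.0295), Myc at -0.105 (0.0211) and Yy1 at 0.095 (0.041). In dKO against Tet2KO, Pprc1, a coactivator of respiratory genes, rose by 0.193 (0.0125) and Myc by 0.142 (0.00383).

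The lists most like the members moved in part alike. Of 78 mitochondrial ribosomal protein genes, 43 were lower in Tet2KO against WT (median -0.151) and 23 higher in dKO against Tet2KO (median 0.121). Of 78 cytosolic ribosomal protein genes, 33 were lower in Tet2KO against WT (median -0.069), 17 lower in dKO against Tet2KO (median -0.048) and 58 lower in dKO against WT (median -0.121). The 13 mitochondrially encoded protein genes, whose products sit in the same complexes, had 9 lower in Tet2KO against WT (median -0.284) and 8 lower in dKO against Tet2KO (median -0.218). In dKO against WT 10 of the 13 were lower, with a median of -0.562, beside -0.044 for the nuclear members. The mitochondrially encoded complex IV subunit mt-Co1 stood at -0.43 and mt-Nd1, of complex I, at -0.512 in that comparison (edgeR adjusted p 1.62e-09 and 2.67e-08).

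As sets, the mitochondrially encoded transcripts thus had their lowest levels in dKO and the nuclear members in Tet2KO. In dKO against Id1KO 10 of the 13 were lower and 1 higher, mt-Nd5 (0.258, edgeR adjusted p 0.00421). Against WT, mt-Nd5 (0.064) and mt-Nd4 (-0.096) were not called in dKO. Of the 90 nuclear members, 65 had their lowest mean CPM in Tet2KO and 16 in dKO, beside 31.6% and 21.5% of all genes tested. The summed CPM of the 13 ran from 9740 to 10100 in WT, 7820 to 8130 in Tet2KO, 9980 to 10100 in Id1KO and 6760 to 7430 in dKO. That of the 90 nuclear members ran from 10600 to 10900, 9960 to 10100, 10800 to 10800 and 10400 to 10600 in the same order. The difference between these lists was not tested.

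Markers of red cell precursors moved with these results. Of 20 erythroid markers, 19 were lower in Tet2KO against WT (median -0.829) and 19 higher in dKO against Tet2KO (median 0.874). In dKO against WT 6 were higher, such as Hbb-bs (0.896), and 3 lower, such as Tfr2 (-0.27), with a median of -0.018. In dKO against Id1KO 6 were higher and 5 lower, with a median of -0.024. The summed CPM of the 20 ran from 1970 to 2020 in WT, 1120 to 1140 in Tet2KO, 2070 to 2090 in Id1KO and 1900 to 1940 in dKO. Car1 (493 CPM in WT) and Car2 (487) carry much of it, and no marker of the list was at 0 in all libraries. Klf1, an erythroid transcription factor, stood at 71.0 CPM in WT and 40.7 in Tet2KO, and the late markers were low, with genotype means of 0.348 to 0.567 CPM for Alas2 and 0.363 to 1.51 for Slc4a1. In bulk RNA, fewer cells of a type and less RNA per cell cannot be told apart, and the part of the erythroid markers in the members' values was not tested. The summed CPM of 12 neutrophil markers ran from 14500 to 14500 in WT, 16000 to 16200 in Tet2KO, 12300 to 13200 in Id1KO and 12100 to 13200 in dKO. Abundant genes carry this sum, and the markers went both ways. In Tet2KO against WT 6 of the 12 were higher, such as S100a9 (0.708), and 3 lower, such as Camp (-0.924), with a median of 0.127. In dKO against WT 4 were higher and 4 lower, with a median of 0.039.

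Lymphoid markers moved opposite to the members. Of 10 tested, 6 were higher in Tet2KO against WT (median 0.491), among them the B-cell factors Pax5 (0.943) and Ebf1 (0.678), and 5 were lower in dKO against Tet2KO (median -0.582), among them Dntt (-0.821), which adds bases at antigen receptor joints. In dKO against WT none was higher and 2 were lower (median -0.163), and the members' median was negative too (-0.044). In Id1KO against WT none was higher and 1 was lower, Dntt at -0.662 (median -0.221), beside a members' median of -0.002. In dKO against Id1KO 1 was higher and 1 lower (median 0.203). Pax5 had 13 to 42 counts in each library and Ebf1 23 to 51. The summed CPM of the lymphoid list ran from 196 to 204 in WT, 222 to 226 in Tet2KO, 178 to 183 in Id1KO and 159 to 171 in dKO. Nkg7, at 140 CPM in WT, carries much of this sum. Of 9 tested monocyte and dendritic markers, 5 were higher and 1 lower in Tet2KO against WT (median 0.238), and 2 were higher and 3 lower in dKO against Tet2KO (median -0.092). The medians in Tet2KO against WT were -0.018 for megakaryocyte, 0.019 for mast, basophil and eosinophil and 0.1 for stem and progenitor markers. The part of these cell types in the members' values was not tested. Kit, the receptor used in the sort, had means of 315 CPM in Id1KO, 320 in dKO, 338 in WT and 365 in Tet2KO, and T-cell Cd3e was at 0 or 1 count in each library.

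Transcript length also went with direction. Among 1343 tested protein-coding genes whose longest transcript is under 1500 bases, a set added after the data were seen, 322 were lower and 92 higher in Tet2KO against WT, with a median of -0.068. In dKO against Tet2KO 162 of them were higher and 146 lower, with a median of 0.018. Many members have short transcripts, and the part of length was not tested. Of the tested members, 28 overlap an exon of another gene on the opposite strand and 5 on the same strand.

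The promoters of the members were read for words of factors known to drive respiratory genes. RefSeq windows from 250 bases before to 50 after the start (GRCm38.p6) were matched for 76 members, which gave 81 windows. On either strand, the word GCATGCGC, from the NRF1 palindrome, was in 14.8% of them, beside 2.71% of all 32851 windows. The ETS word CCGGAAG, bound by GABP, was in 22.2%, beside 8.86%, and the YY1 word AAGATGGC in 13.6%, beside 2.75%. TATAAA was in 9.88%, beside 13.6%, and the Sp1 word GGGCGG in 44.4%, beside 35.7%. An ETS and an Sp1 word shared letters in 1 window, and no other pair did. A match is a description and not a bound site. Of 37 windows of members lower in Tet2KO against WT, 6 held the NRF1 word, 11 the ETS word and 5 the YY1 word, and of 41 windows of the other tested members 6, 7 and 6.

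The 160 bases before the start are shown for Ndufaf4, Ndufaf1 and Atp5e, to let the words be seen in place. They were chosen because they hold a word: of 14 such stretches of members with the largest called changes, these 3 do and the other 11, among them those of Ndufb6, Ndufa4, Sdha, Ndufv1 and Cox7a2, hold none in these 160 bases. Capitals mark the NRF1, ETS and YY1 words, and all are written 5′ to 3′ on the gene's strand.
Ndufaf4 (chr4:24897923-24898082, plus strand): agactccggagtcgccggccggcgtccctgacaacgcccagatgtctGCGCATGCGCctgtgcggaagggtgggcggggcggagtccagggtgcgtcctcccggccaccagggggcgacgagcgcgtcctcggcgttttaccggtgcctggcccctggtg
Ndufaf1 (chr2:119662835-119662994, minus strand): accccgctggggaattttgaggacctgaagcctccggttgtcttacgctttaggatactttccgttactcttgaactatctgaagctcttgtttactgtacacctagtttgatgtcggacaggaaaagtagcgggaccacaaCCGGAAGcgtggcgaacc
Atp5e (chr2:174464102-174464261, minus strand): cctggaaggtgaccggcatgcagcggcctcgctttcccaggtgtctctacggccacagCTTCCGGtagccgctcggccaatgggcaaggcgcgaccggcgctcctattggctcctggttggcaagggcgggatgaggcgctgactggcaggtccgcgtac
In Ndufaf4 the NRF1 word is present on both strands as overlapping copies, and in Atp5e the ETS word is read on the opposite strand. Ndufaf1 holds its ETS word close to the start, at position -18.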

How the data were processed

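Total RNA depleted of ribosomal RNA was sequenced from 12 libraries with a stranded kit, per the labels' protocols. The deposited values are estimated counts per gene that the authors did not normalize; 5.06% are not whole numbers. STAR, RSEM and the build mm10 are named, without versions, per the submitters' processing notes. All 55450 gene identifiers matched GENCODE M21 (GRCm38). The members and gene lists were chosen with earlier results of these data known.

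Estimated counts were rounded, filtered by edgeR's filterByExpr (minimum count 10), scaled by TMM and fitted by edgeR with its quasi-likelihood test (a mean for each of the 4 genotypes, two-sided) with Benjamini-Hochberg adjustment over 14346 genes and a threshold of 0.05. Standard errors are those of the fit. With 3 against 3 libraries the smallest exact permutation p is 0.1, and no such test was run. The common biological coefficient of variation was 0.031. Pairs of libraries within a genotype differed by more than sampling noise and were kept apart. The fit was tested on simulated data. Named members are the 3 highest per length in each group, the 5 highest and 5 lowest called in each comparison, the isoform families and the catalytic subunits. Copies were sought with blast at 95% identity over at least 100 bases.

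Alternatives were other scalings (3), DESeq2, other filters, the libraries compared alone, a replicate block, each library left out, summed libraries, glmTreat at 1.2-fold and a threshold of 0.01; copies summed and 2 scalings by library totals were chosen after seeing the data. The work was done in Python 3.11.15 with matplotlib 3.10.9 and blast 2.17.0, and in R 4.3.3 with DESeq2 1.42.0, limma 3.58.1 and edgeR 4.0.16.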

Additional observations from a re-analysis of the deposited data

Results flagged for a closer look

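The difference between dKO and Tet2KO departed from that between Id1KO and WT in 5 members, by the edgeR interaction term with adjustment over all genes. All 5 were positive, 5.56% of the members, beside 7.46% positive and 7.03% negative over all genes tested. The members were thus called no more often than genes at large. The interaction was 0.23 ± 0.073 (SE) for Ndufb6, an accessory subunit of complex I (adjusted p 0.0359), and 0.21 for Ndufs1 (0.00872). It was 0.21 for Ndufv1 (0.0218), 0.15 for Uqcrc2 (0.0142) and 0.13 for Sdha (0.0308). Mean CPM of Ndufb6 was 39.5 ± 0.9 in Tet2KO and 43.9 ± 3.0 in dKO, beside 44.8 ± 0.98 in WT and 42.3 ± 2.1 in Id1KO (SD, n = 3 libraries). With 1 library left out, the call was lost in 10 of 12 fits for Ndufb6 (adjusted p up to 0.125, without dKO replicate 3), in 8 for Sdha (0.0984, without Tet2KO replicate 2), in 6 for Ndufv1 (0.0809, without Tet2KO replicate 2) and in 2 for Uqcrc2 (0.0545, without dKO replicate 3). For Ndufs1 it was kept in all 12.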

How the results depend on the processing

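With 3 libraries a genotype that may be repeats of 1 cell sample, the tests describe these libraries. Against WT, 45 members were called in Tet2KO, 3 in Id1KO and 13 in dKO. In dKO, 23 were called against Tet2KO and 13 against Id1KO, and the interaction had 5. Counts below keep this order. A test against a 1.2-fold change (glmTreat) gave 0 in each of the 6, and a threshold of 0.01 gave 27, 1, 4, 12, 9 and 1. Over all 14346 genes glmTreat called 769, 140, 477, 334, 481 and 237. Summed libraries with additive labels gave 0 in the 5 pairwise comparisons, with medians of -0.066, 0.035, -0.037, 0.035 and -0.066. Library totals without scaling factors gave 13, 17, 9, 23, 12 and 3, with medians of -0.051, 0.05, 0.01, 0.061, -0.036 and 0.016. On that scale the medians of all genes tested were 0.052, 0.044, 0.051, -0.002, 0.001 and -0.044. It had 4758, 2742, 3357, 3734, 2716 and 2335 of all genes called. The main fit had 4699, 2156, 2754, 3793, 2762 and 2078. Totals over nuclear protein-coding genes gave 8 in dKO against WT, DESeq2 gave 5 there, and the fit of the compared libraries alone 6. Over all genes these fits called 2772, 1868 and 2327. Id1KO against WT had 6 without a filter, 5 with the stricter filter and 6 from the compared libraries alone. All genes there had 2376, 2201 and 2134. The interaction had 10 without a filter, beside 2221 of 25062 genes. With 1 library left out, the counts ran from 28 to 47, 2 to 6, 5 to 13, 15 to 27, 10 to 14 and 1 to 11, and the interaction's median from 0.054 to 0.085. Over all genes these calls ran from 3808 to 4964, 1512 to 2386, 1999 to 2784, 2951 to 3847, 2109 to 2837 and 1582 to 2161. RLE, upper-quartile and the TMM scaling without mitochondrial and small RNA genes kept each count within 1.5 times. The causes of these shifts were not tested.

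Correlations between same-numbered libraries ran from -0.097 to 0.113, and between differently numbered ones from -0.104 to 0.174. Same-numbered pairs with a WT library were all positive (0.022 to 0.093), beside -0.066 to 0.023 for the other pairs with WT. The main fit did not pair libraries by number, and whether the numbers mark a weak link was not tested. With a replicate block the counts were 42, 3, 9, 22, 13 and 5, beside 4523, 1952, 2565, 3592, 2576 and 1871 of all genes.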
